A study of Mus musculus with 26 samples.

Results

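Cpt1a, Eci1 and Acadm are 3 genes of fatty acid oxidation, and the arrays carry 4 probe sets annotated to them, 1 for Cpt1a, 1 for Eci1 and 2 for Acadm, among 13179 probe sets and 6137 named genes in all. The 3 genes were chosen by their measured differences between genotypes in these hearts, so their genotype values are given as a description, with no test. The samples were whole hearts of mouse embryos at embryonic day 12.5, from a line in which the NK2 specific domain of Nkx2.5, a DNA-binding regulator of heart formation, is deleted. The 5 wild-type embryos are numbered 1, 2, 7, 9 and N1, the 4 heterozygotes 5, 6, 12 and N2, and the 4 nulls, which lack the domain on both alleles, 3, 4, 8 and N3; no treatment is named. Each heart was run on an A and a B array, which gave 26 samples. The labels give no litter, sex or strain background, so the p-values account for none of these. The small number of hearts sets the precision.

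Long-chain fatty acids enter mitochondria as carnitine esters. Cpt1a makes these esters at the outer mitochondrial membrane and is the isoform best known from liver, while the adult heart mainly uses Cpt1b. Inside the matrix, the acyl-CoA dehydrogenases, of which Acadm handles medium-chain acids, begin each cycle of beta-oxidation, and Eci1 moves the double bond of unsaturated acids so that the cycle can go on. The fetal heart relies largely on glucose and lactate, and fatty acids become its main fuel after birth.

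The promoter sequences of the 3 genes are shown because the deleted domain belongs to a DNA-binding factor and fatty acid oxidation genes are known targets of nuclear receptors. Each is the 250 bases before the gene's start in RefSeq (GRCm38.p6), 5′ to 3′ on the gene's strand; all 3 genes matched. Capitals mark AAGTG or its reverse complement CACTT, the core of the Nkx2-5 motif, and AGGTCA or its reverse complement TGACCT, the core that nuclear receptors bind. These motifs share no overlapping letters here. The Cpt1a window lies at chr19:3323051-3323300 on the + strand, the Eci1 window at chr17:24426433-24426682 on the + strand and the Acadm window at chr3:153944644-153944893 on the - strand.
Cpt1a: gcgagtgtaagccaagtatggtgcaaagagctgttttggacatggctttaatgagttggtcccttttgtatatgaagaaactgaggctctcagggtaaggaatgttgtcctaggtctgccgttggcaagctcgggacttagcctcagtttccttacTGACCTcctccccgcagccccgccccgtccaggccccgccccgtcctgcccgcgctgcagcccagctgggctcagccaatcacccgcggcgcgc
Eci1: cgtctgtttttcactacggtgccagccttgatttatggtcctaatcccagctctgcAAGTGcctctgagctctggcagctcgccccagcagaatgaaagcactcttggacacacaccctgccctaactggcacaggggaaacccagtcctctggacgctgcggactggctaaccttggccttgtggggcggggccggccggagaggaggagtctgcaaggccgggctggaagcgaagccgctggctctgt
Acadm: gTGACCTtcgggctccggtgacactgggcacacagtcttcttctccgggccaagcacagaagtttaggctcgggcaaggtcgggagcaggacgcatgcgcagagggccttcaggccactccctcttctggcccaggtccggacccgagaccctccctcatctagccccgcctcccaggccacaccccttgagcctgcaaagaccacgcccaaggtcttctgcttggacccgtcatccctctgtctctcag
The Cpt1a window held AGGTCA on its reverse strand, at bases -94 to -89 from the start. The Acadm window held AGGTCA on its reverse strand as well, at -249 to -244. The Eci1 window held AAGTG on its forward strand, at -194 to -190, and no AGGTCA. Of 32536 mouse promoter windows of the same length, 40.6% held AAGTG on either strand and 14.0% held AGGTCA. A match is a description of letters, and binding was not measured in these samples.

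The deposited values were intensities on a linear scale. A floor was set at 2 times the noise of each table, 887 on A and 1373 on B, where the noise is the root mean square of the negative values; lower values were raised to it before log2 was taken. Of the 13179 probe sets, 4494 had enough values above the floor to be tested, and all 4 probe sets of the 3 genes were among them. Blank cells left 9 or 10 hearts with a value for each, and blanks were treated as missing. All 8 cardiomyocyte marker genes on the arrays were above the floor in most hearts, as were 6 of 6 fibroblast and cushion, 5 of 6 endothelial and 5 of 7 erythroid markers. None of 6 liver and none of 4 lung and foregut markers was.

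Cpt1a, measured by AF017175_s_at on A, was lower in null than in heterozygous hearts, and lower than in all but 1 of the wild-type hearts. It read 982 in wild-type heart 2, 1587 in heart 7, 2059 in heart 9 and 1241 in heart N1, and 1339 and 1722 in heterozygous hearts 5 and 12. In null hearts it read 993 in heart 3, 1024 in heart 4, 1139 in heart 8 and 876.5 in heart N3, which is below the floor. The null hearts lay close together, and wild-type heart 2 was the only wild-type heart among them. The mean intensity was 1467 ± 466 (SD, n = 4) in wild-type, 1530 ± 270 (n = 2) in heterozygous and 1008 ± 108 (n = 4) in null hearts. The whole signal was weak, between 0.988 and 2.32 times the floor.

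On the log2 scale the fitted Cpt1a difference of null minus wild-type hearts was -0.49 ± 0.21 (SE), with a 95% interval of -0.95 to -0.03, a 1.40-fold lower level. Null minus heterozygous was -0.59 ± 0.26, and these groups did not overlap. The same null and heterozygous hearts did not overlap in the Gapdh controls either, whose log2 of 3' over 5' signal ran from -0.18 to -0.10 in null and from -0.05 to -0.03 in heterozygous hearts; the part of this in the Cpt1a difference was not tested. Heterozygous minus wild type was 0.10 ± 0.26, with an interval of -0.46 to 0.67. Leaving out wild-type heart 9 moved the null minus wild-type value to -0.31, and leaving out wild-type heart 2 moved it to -0.66. Among hearts 1 to 6 it was 0.04 (2 null hearts against 1 wild-type heart), among hearts 7 to 12 it was -0.67 (1 against 2), and among the N hearts -0.49 (1 against 1), so the lower null level was not seen within hearts 1 to 6. Beside Cpt1a, the summed level of the 4 endothelial probe sets ran from 7142 to 8353 in wild-type and from 5249 to 8000 in null hearts, which overlap. Of the skeletal muscle markers, 2 of 6 genes were above the floor in most hearts, Tnni2 on A and Ckm on B. The 3 probe sets summed on A were of Tnni2, Myog and Tnnt3, above the floor in 10, 5 and 1 of 10 hearts. This sum ran from 1471 to 3851 (median 1730) in wild-type, from 3460 to 4836 (4148) in heterozygous and from 3717 to 11924 (6954) in null hearts. The wild-type and null ranges on A overlap only at their ends. On the B arrays with an Eci1 value, 3 summed probe sets, Ckm included, did not follow the groups. They ran from 7504 to 22373 in wild-type, from 5881 to 12704 in heterozygous and from 9393 to 14380 in null hearts. The part of these markers in the Cpt1a difference was not tested. In whole hearts, fewer cells of a type and less RNA per cell cannot be told apart.

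Eci1, measured by its single probe set on B, was higher in every heterozygous and every null heart with a value than in any wild-type heart with one. It read 1611, 1711 and 1461 in wild-type hearts 1, 2 and 7. It read 2825, 2111, 2042 and 1983 in heterozygous hearts 5, 6, 12 and N2, and 2322, 1906 and 2311 in null hearts 4, 8 and N3. Heterozygous and null hearts overlapped each other, and both lay wholly above the wild-type range. The mean was 1594 ± 126 (SD, n = 3) in wild-type, 2240 ± 393 (n = 4) in heterozygous and 2180 ± 237 (n = 3) in null hearts. These levels were 1.06 to 2.06 times the floor, and wild-type hearts 9 and N1 and null heart 3 had no value.

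The Eci1 log2 difference was 0.48 ± 0.18 (SE) for heterozygous minus wild type, with a 95% interval of 0.08 to 0.88, and 0.45 ± 0.20 for null minus wild type, with an interval of 0.02 to 0.87. Both comparisons share the 3 wild-type hearts. Null minus heterozygous was -0.03 ± 0.18, with an interval of -0.43 to 0.37. Among hearts 1 to 6, heterozygous minus wild type was 0.56 and null minus wild type 0.48, and among hearts 7 to 12 they were 0.48 and 0.38, the latter from 1 heart of each genotype. The heterozygous minus wild-type value was 0.36 when heterozygous heart 5 was left out and 0.58 after quantile scaling. On these B arrays the Gapdh controls, compared as log2 of 3' over 5' signal, ran from -0.15 to 0.06 in wild-type, from -0.22 to 0.01 in heterozygous and from -0.10 to 0.08 in null hearts, which overlap. The summed level of 7 cardiomyocyte probe sets, from 196272 to 708787 in wild-type, from 175129 to 424696 in heterozygous and from 361218 to 576466 in null hearts, overlapped too.

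**Figure D1:**
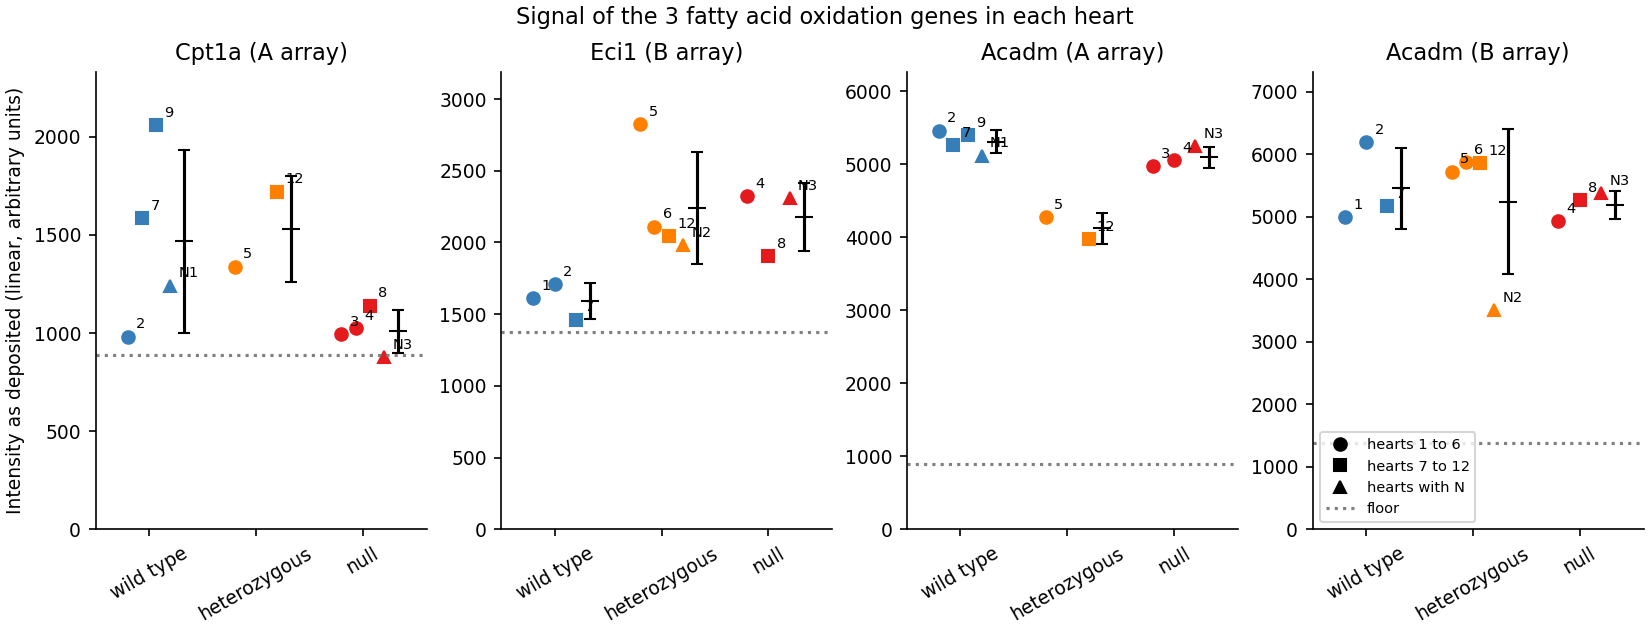
Deposited intensity (linear, arbitrary units) of the 4 probe sets in each heart, by genotype; points are hearts with their numbers, their shape gives the heart-number range, bars are the mean ± SD and the dotted line is the floor (887 on A, 1373 on B). Eci1 lies above the wild-type range in all heterozygous and null hearts, Cpt1a is low in the 4 null hearts and in wild-type heart 2, and Acadm is low in heterozygous hearts 5 and 12 on the A array but not on the B array.

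Acadm was the strongest of the 3 signals, at 2.55 to 6.16 times the floor, and its 2 probe sets disagreed about heterozygous hearts. On A, U07159_f_at read 5462, 5262, 5397 and 5116 in wild-type hearts 2, 7, 9 and N1, and 4274 and 3970 in heterozygous hearts 5 and 12. In null hearts 3, 4 and N3 it read 4974, 5057 and 5248. The 2 heterozygous hearts were below every other heart, and null and wild-type hearts overlapped. The means were 5309 ± 153 (SD, n = 4), 4122 ± 215 (n = 2) and 5093 ± 140 (n = 3) in wild-type, heterozygous and null hearts.

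On B, the other Acadm probe set read 4998, 6201 and 5170 (wild-type hearts 1, 2 and 7), 5722, 5876, 5856 and 3505 (heterozygous hearts 5, 6, 12 and N2) and 4934, 5267 and 5375 (null hearts 4, 8 and N3). Hearts 5 and 12, the low pair on A, were within the wild-type range on B, and the 3 genotypes overlapped. The heterozygous minus wild-type log2 difference was -0.37 ± 0.16 (SE; 95% interval -0.70 to -0.03) on A and -0.08 ± 0.21 (-0.53 to 0.37) on B. On A the residual SD between hearts of a genotype was 0.05, so the SE there comes mostly from the spread that limma borrows from other probe sets. With no filter on low values the same A difference had an SE of 0.04. Without heterozygous heart N2 the B value was 0.10. Null minus wild type was -0.06 ± 0.14 on A and -0.07 ± 0.22 on B. Over the 6 hearts with both values, the probe sets had a Pearson r of -0.27 and a Spearman rho of 0.03. Both probe sets are of the _f_at kind, which may also detect related family members. On the A arrays with an Acadm value, the log2 Gapdh signal of 3' over 5' controls was -0.05 to -0.03 in the heterozygous hearts, above the wild-type (-0.26 to -0.08) and null (-0.15 to -0.10) hearts; its part in the low A values was not tested. In the same hearts 5 skeletal muscle probe sets were summed, of which only that of Tnni2 was above the floor in every heart. Their sum ran from 6518 to 12016 in null hearts, above the wild-type (1848 to 4033) and heterozygous (3593 to 5127) hearts. The 4 erythroid probe sets ran from 142805 to 187211 in null hearts, also above the wild-type (94920 to 138865) and heterozygous (65802 to 120241) hearts. The 4 cardiomyocyte probe sets ran from 132078 to 190157 in heterozygous hearts, below the null hearts (212037 to 261144). Wild-type hearts (154359 to 238329) overlapped both. The separations on A were not seen on the B arrays with an Acadm value. There the 7 erythroid probe sets ran from 73304 to 442824 in wild-type, from 71770 to 157432 in heterozygous and from 130142 to 294284 in null hearts. These ranges overlap, as do those of the skeletal muscle and cardiomyocyte sums on B. The part of these markers in the Acadm values was not tested.

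Across all probe sets, limma called 1 of 4494 (0.0223%) between null and wild-type hearts at an adjusted p under 0.05, and that 1 was not a probe set of these genes. Groups did not overlap for 1 of the 4 probe sets (Eci1) in this comparison, where 2.27% of all tested probe sets did not overlap. Between heterozygous and wild-type hearts limma called 0 of 4494 (0%), with 152 at an unadjusted p under 0.05; groups did not overlap for 2 of the 4 (Eci1 and Acadm on A), against 5.5% of all. Between null and heterozygous hearts limma called 0 of 4494 (0%), with 260 at an unadjusted p under 0.05; groups did not overlap for 2 of the 4 (Cpt1a and Acadm on A), against 7.7% of all. The genes were picked for such differences, so nothing is read from these counts.

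**Figure D2:**
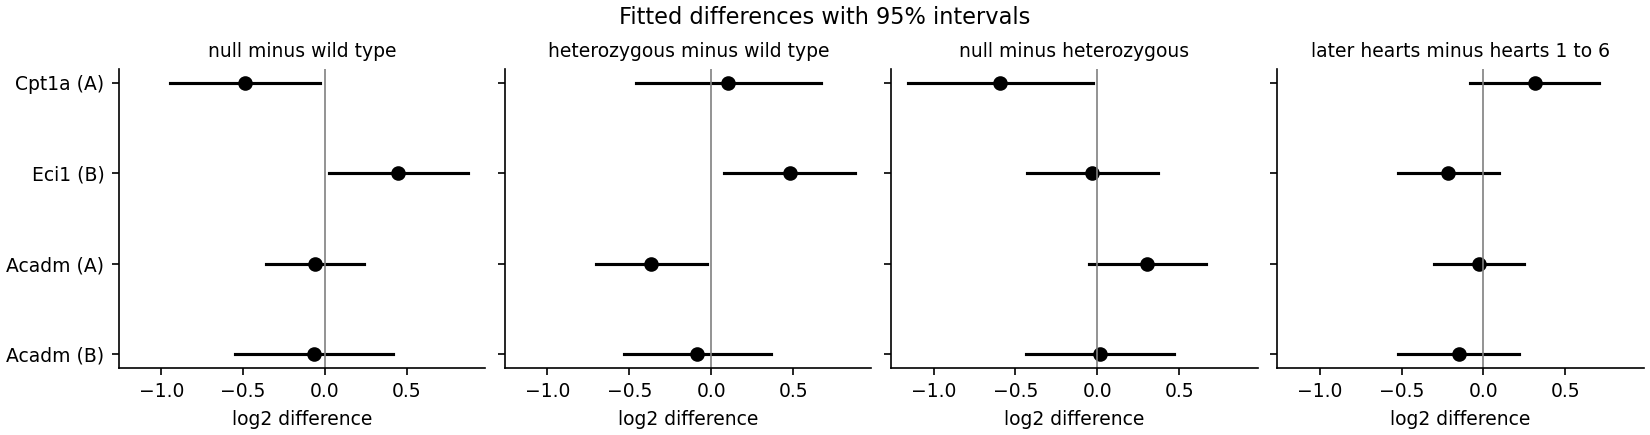
Fitted log2 differences of the 4 probe sets (points) with 95% intervals (lines) in the 3 genotype comparisons and between heart-number ranges; the letter after each gene is its array. The genes were chosen by the genotype differences, so the first 3 panels are a description; Cpt1a is at -0.49 and Eci1 at 0.45 for null minus wild type. All 4 intervals between heart-number ranges include 0.

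The 3 genes were also compared between the hearts numbered 1 to 6 and the later ones (7 to 12 and N), with genotype in the model. The choice of genes did not use this contrast, so it was tested. The split by heart number was itself made with earlier results of these data known. The heart numbers come from the sample titles, and the labels do not say what they stand for. limma called 321 of 4494 probe sets (7.14%), and 0 of the 4 probe sets of Cpt1a, Eci1 and Acadm. Cpt1a was at 0.31 ± 0.18 (SE) on the log2 scale in later minus earlier hearts (limma adjusted p = 0.313). Eci1 was at -0.21 ± 0.14 (limma adjusted p = 0.382). Acadm was at -0.03 ± 0.13 on A (limma adjusted p = 0.922) and -0.15 ± 0.17 on B (limma adjusted p = 0.619). The intervals, such as -0.08 to 0.71 for Cpt1a, do not show that the levels were alike.

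The rest of the pathway was followed in 87 other listed genes of fatty acid handling, of which 44 had a probe set and 30 were tested. In limma 0 of the 30 passed between null and wild-type hearts (1 at an unadjusted p under 0.05), 0 between heterozygous and wild-type hearts (0 unadjusted) and 0 between null and heterozygous hearts (1 unadjusted). The median log2 difference of null minus wild type was -0.04 over the 30 genes, with 10 positive and 20 negative, and -0.01 over all 2733 tested genes, of which 48.3% were positive. Among the 10 other mitochondrial beta-oxidation genes 9 had a negative value; the values ran from -0.28 to 0.09, and none passed. The close relatives of the chosen genes were Acads, the short-chain dehydrogenase (-0.28 ± 0.21), Acadl, the long-chain one (-0.26 ± 0.26), Acadvl, the very-long-chain one (-0.10 ± 0.22), Echs1, the hydratase of the cycle (-0.07 ± 0.19), and Cpt2, the inner-membrane partner of Cpt1a (-0.15 ± 0.18). The smallest unadjusted p-values belonged to Scd2, a fatty acid desaturase (0.39 ± 0.17), and Cat, the peroxide-degrading catalase (-0.68 ± 0.33). Between heterozygous and wild-type hearts they belonged to Scd2 (0.31 ± 0.19), Fasn (0.40 ± 0.29) and Acadl (-0.41 ± 0.30), and between null and heterozygous hearts to the mitochondrial carrier Ucp3 (0.69 ± 0.31), Fasn (-0.47 ± 0.30) and Pdk1, a kinase that restrains pyruvate oxidation (0.28 ± 0.22).

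**Figure D3:**
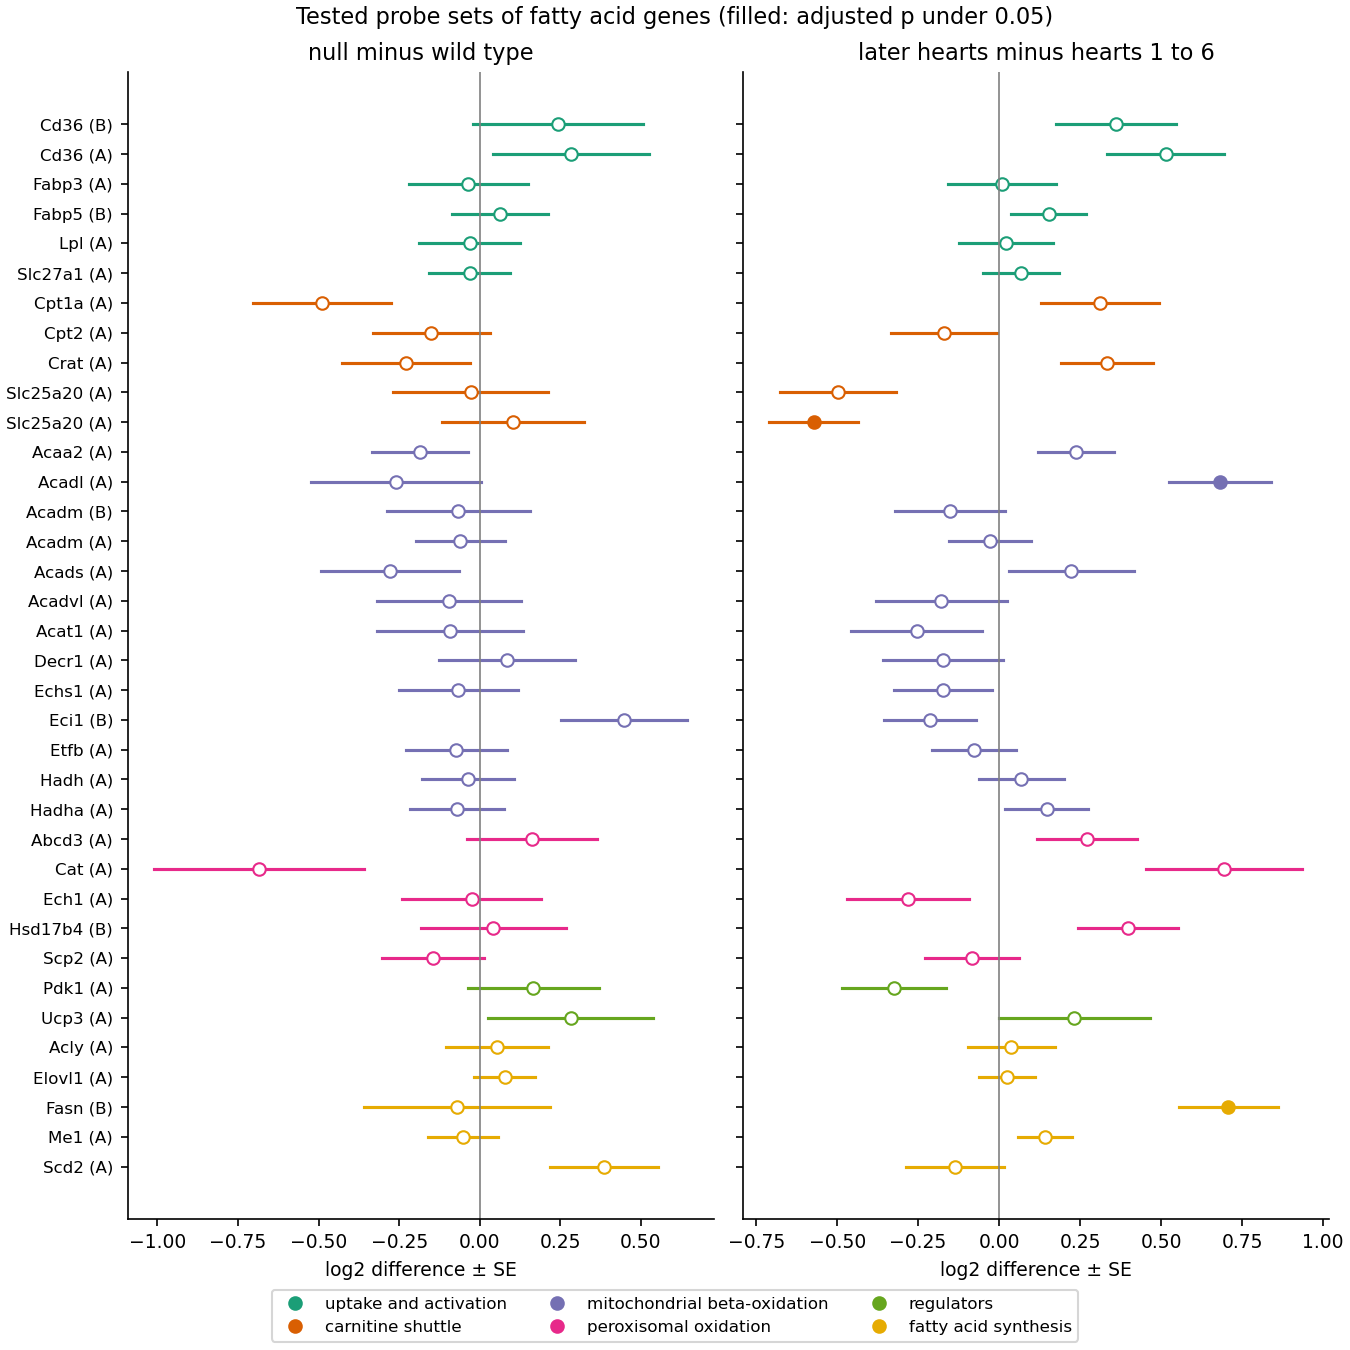
Log2 differences ± SE of the tested probe sets of fatty acid genes, the 3 chosen genes included, for null minus wild-type hearts (left) and later hearts minus hearts 1 to 6 (right); colours are the gene lists and filled points passed limma's test. No point is filled on the left, where Cpt1a (-0.49) and Eci1 (0.45) were chosen with these values known, and Acadl, Fasn and 1 probe set of Slc25a20 are filled on the right.

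Between heart-number ranges 3 of the 30 pathway genes passed, Acadl and Fasn higher and Slc25a20 lower in later hearts. Over all probe sets 321 of 4494 (7.14%) passed in this contrast. That share counts probe sets, while a pathway gene counts when any of its probe sets passed. With that difference in unit, the pathway's share is near that of the arrays as a whole, and the 3 genes are given for their own values. Acadl read 3467 to 4727 in the 4 hearts numbered 1 to 6 with a value and 5438 to 8104 in the 5 later ones, with no overlap (log2 difference 0.68 ± 0.16, limma adjusted p = 0.0271). The call ended without null heart N3 (0.49, limma adjusted p = 0.113), wild-type heart 2 (0.0653), wild-type heart 7 (0.0536) or null heart 4 (0.0553), and after quantile scaling (0.0532). Acadm, the next enzyme down in chain length, did not pass in the same contrast. Fasn, which makes palmitate, differed by 0.71 ± 0.15 (limma adjusted p = 0.0174); its call ended after quantile scaling (0.0625) and when null heart 4 (0.052), the mostly blank arrays (0.0506) or the B arrays of hearts 7, 9 and 12 (0.0622) were left out. Slc25a20, which carries the esters made by Cpt1a across the inner membrane, was at -0.57 ± 0.14 by aa688902_g_at (limma adjusted p = 0.0293) and at -0.50 ± 0.18 by aa688902_at (limma adjusted p = 0.107). Its call ended without wild-type heart 2 (0.156), wild-type heart 7 (0.0613), null heart 8 (0.0749), heterozygous heart 5 (0.0505) or heterozygous heart 12 (0.0527), and with a floor at 1 times the noise (0.0625) or an inverse hyperbolic sine in its place (0.0653). All 3 calls ended with no filter on low values. On the A arrays with an Acadl value, 4 summed endothelial probe sets ran from 5249 to 7444 in hearts 1 to 6 and from 7142 to 8353 in later hearts. The 4 summed cardiomyocyte probe sets ran from 190157 to 261144 in hearts 1 to 6 and from 132078 to 212037 in later hearts. Both overlap, and the part of these markers in the calls was not tested.

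**Figure D4:**
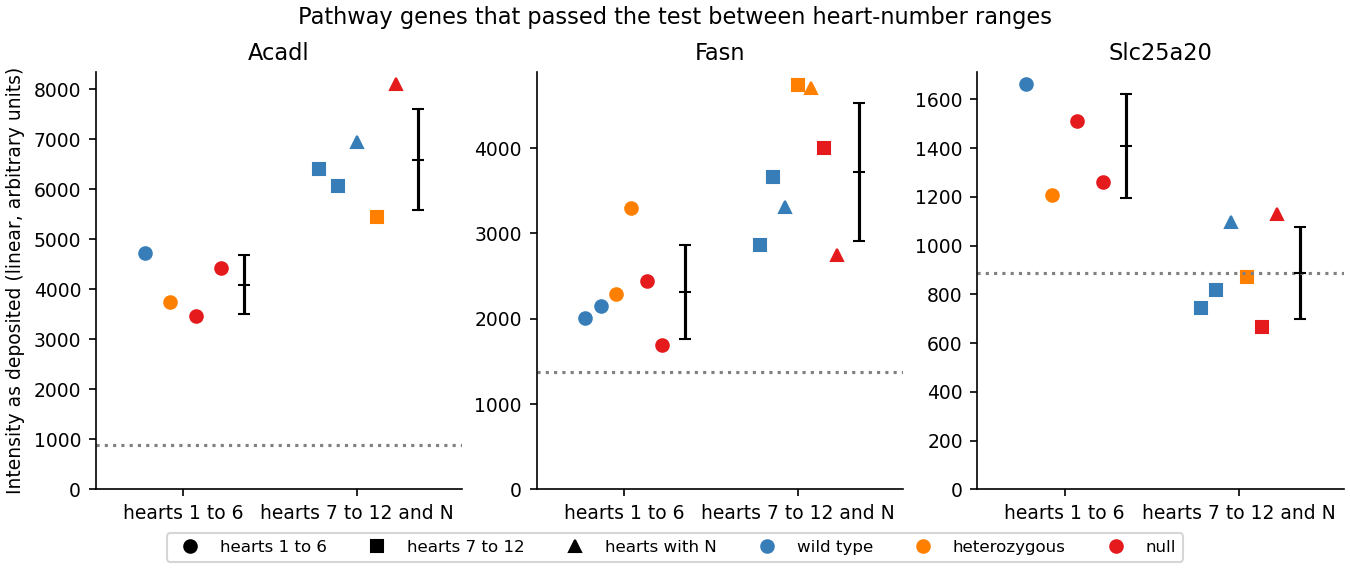
Deposited intensity (linear, arbitrary units) of the 3 pathway probe sets that passed between hearts 1 to 6 and hearts 7 to 12 and N; points are hearts, coloured by genotype, bars are the mean ± SD and the dotted line is the floor. Acadl does not overlap between the ranges, Fasn does through heterozygous heart 6, and Slc25a20 reads under the floor in several later hearts.

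The tested single-gene probe sets whose log2 levels followed each gene most closely were listed by Pearson r over 9 or 10 shared hearts. These are the extremes of 2852 probe sets for Cpt1a and of 1635 each for Eci1 and Acadm, given as a description. Each r was taken again without the 2 hearts farthest from the gene's median over the shared hearts. For Cpt1a they were the homeodomain factor Pbx3 (r 0.92), the histone H2ax (0.91), the histone demethylase Kdm1a (0.91), the heterochromatin protein Hp1bp3 (0.89) and the phosphate transporter Slc20a1 (0.88). Most opposite to Cpt1a were the ribosomal gene Rps24 (-0.91), the lactate dehydrogenase subunit Ldha (-0.91) and Tpt1 (-0.90). These 3 probe sets are on B, as are H2ax, Kdm1a and Hp1bp3. Cpt1a read highest in wild-type hearts 7 and 9 and heterozygous heart 12. The highest values on the B arrays of these hearts were 36247 to 49132, against 73894 or more in the other hearts. No scaling between arrays was added here, and the part of array signal level in these lists was not tested. The 2 hearts left out for Cpt1a were wild-type heart 9 and heterozygous heart 12, or null heart N3 in place of heart 12 for Kdm1a and Slc20a1. Wild-type heart 7 was not among those left out. Without the 2 hearts the 5 alike values of Cpt1a ran from 0.73 to 0.91 and the 3 opposite ones from -0.76 to -0.71. For Eci1 they were the mitochondrial nuclease Endog (0.74), Rdh13 (0.71), Cks2 (0.71), Srsf5 (0.69) and the metallothionein Mt1 (0.69), and most opposite Phtf2 (-0.80), 1110004F10Rik (-0.75) and Flot1 (-0.74). Rdh13 and Mt1 were above the floor in 3 and 4 of these 10 hearts. Without hearts 5 and 7 the alike values of Eci1 ran from -0.29 (Cks2) to 0.57 (Mt1) and the opposite ones from -0.65 (Flot1) to -0.17 (Phtf2). The list for Eci1 thus rests in large part on those hearts, and Flot1 changed least. Spearman rho over all shared hearts was 0.85 for Endog and -0.78 for Flot1, but 0.40 for Srsf5 and -0.43 for Phtf2. For Acadm on B they were Matr3 (0.83), Zzz3 (0.82), Frmd6 (0.81), the hexokinase Hk2 (0.79) and Asph (0.79), and most opposite Ythdf1 (-0.94), Copz2 (-0.91) and Crabp1 (-0.86), the last above the floor in 3 of 10 hearts. Rank correlations were lower, such as a Spearman rho of 0.20 for Asph and 0.49 for Hk2. Without heterozygous heart N2 and wild-type heart 2 the alike values of Acadm ran from -0.0068 (Asph) to 0.67 (Frmd6) and the opposite ones from -0.44 to -0.19. This list, too, rests in large part on the hearts left out. Among themselves, Cpt1a and Eci1 had an r of -0.23 over 7 hearts, and Eci1 and Acadm on B an r of 0.09 over 10.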

How the data were processed

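RNA of 13 hearts was measured on 26 arrays. The authors deposited 1 linear intensity per probe set and array; their software is not given in the sources used here, and negative values (10.1% to 17.1% of an A array, 24.4% to 29.5% of a B array) show that background had been removed. Gene names come from the platform annotation, updated by gene ID through RefSeq (GRCm38.p6). Of the arrays, 6 lacked 62.5% to 81.3% of their values. Values were floored, log2-transformed and fitted with limma 3.58.1 in R 4.3.3, 1 fit per table to all hearts with a variance trend, two-sided, with Benjamini-Hochberg adjustment over both tables. The trend draws the spread of each probe set toward that of probe sets of similar level, and SEs, intervals and p-values use this drawn spread. Tested probe sets exceeded the floor on at least 4 arrays and had at least 2 values per genotype; control probe sets were left out. The fit was run on simulated data with independent errors, no heart-number effect and planted changes larger than the differences of the chosen genes. That run says nothing about differences of the size given here. Named were the chosen genes, their relatives, pathway genes past the threshold or the 3 of smallest p per contrast, and the 5 most alike and 3 most opposite probe sets. The chosen genes, the lists and the split by heart number were picked with earlier results of these data known. Alternatives were quantile scaling, other treatment of low values, no filter, a heart-number block, no genotype term, and leaving out hearts or arrays; leaving out the B arrays of hearts 7, 9 and 12, whose highest values were the lowest, and recomputing likeness without 2 hearts were chosen after seeing the data. Figures used Python 3.11.15 and matplotlib 3.10.9.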

Additional observations from a re-analysis of the deposited data

Results flagged for a closer look

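In 2 of the 5 groups of 4 hearts examined for the 3 genes, 1 heart stood far from the rest on the linear intensity scale. Its gap to the nearest heart was 0.94 (Acadm) and 0.85 (Eci1) of the group's range, against a limit of 0.829. The Eci1 value is close to that limit. The genes were chosen by values of these same groups, so the count is not set against a chance rate. Acadm on the B array read 3504.5 in heterozygous heart N2, against 5722 to 5876 in the other heterozygous hearts. Eci1 read 2824.7 in heterozygous heart 5, against 1983 to 2111 in the other heterozygous hearts, so it was the highest of a group that lies above wild type without it.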

How the results depend on the processing

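Between heart-number ranges no alternative brought a probe set of Cpt1a, Eci1 or Acadm past the threshold. Many alternatives leave a genotype difference as it is, because the heart or array left out had no value or belonged to another genotype, so signs kept across them say nothing about stability. Heterozygous minus wild type of Cpt1a was -0.08 without heterozygous heart 12. The count of called probe sets between null and wild-type hearts, 1, became 0 after quantile scaling, with no filter, without the mostly blank arrays and without the B arrays of hearts 7, 9 and 12, 2 with a floor at 1 times the noise or an inverse hyperbolic sine, and 4 with the heart-number block; leaving out 1 heart gave 0 to 3. Between heterozygous and wild-type hearts it was 1 with no filter, and 0 to 2 when 1 heart was left out. Between null and heterozygous hearts it was 1 with no filter and 1 with the block, and 0 to 2 when 1 heart was left out. Between heart-number ranges the 321 became 143 after quantile scaling, 6 with no filter, 177 without the mostly blank arrays and 159 without those B arrays; leaving out 1 heart gave 101 (wild-type heart 2) to 339, with 106 without null heart 4, 138 without null heart 8, 140 when wild-type heart 7 and 184 when wild-type heart 1 was left out. The 3 pathway calls became 1 after quantile scaling, 0 with no filter, and 1 (without null heart 4, or wild-type heart 2 or 7) to 4 (without wild-type heart 9) when 1 heart was left out. The no-filter setting tested 13069 probe sets. The cause of the other changes was not tested. No paired analysis was possible because the genotypes share no heart numbers.

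Cpt1a and Eci1 lie within about 2 times the floor, so their differences rest on weak signals, and Acadm on A and Cpt1a rest on 2 heterozygous hearts.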
